A study of Mus musculus with 18 samples.

Results

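The Egr, Nr4a and Tox factors are transcription factors that act downstream of the antigen receptor of T cells. The 8 members were Egr1, Egr2, Egr3, Nr4a1, Nr4a2, Nr4a3, Tox and Tox2. They were chosen by symbol among the 23234 gene symbols of the RNA table, with earlier results of these data known. All 8 were listed. Egr1, Egr2, Nr4a1, Nr4a2, Tox and Tox2 averaged 0.5 FPKM or more across the 10 RNA libraries and were tested, while Egr3 and Nr4a3 lay below that minimum. FPKM is the number of fragments scaled to the length of the gene and to the fragments mapped in the library.

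The study asked what loss of G9a, the histone H3 lysine 9 methyltransferase encoded by Ehmt2, does to the helper genes that CD8 T cells keep silent. RNA came from C57BL/6 T cells, taken from spleen and lymph nodes after 4 weeks of expansion where lymphocytes were scarce. The group KO DP (n = 4) held G9a knockout cells with both CD4 and CD8, the group KO sp (n = 2) G9a knockout cells with CD8 and no CD4, and the group WT (n = 4) G9a wild-type cells with CD8 and no CD4. A second assay mapped trimethylated histone H3 lysine 9 (H3K9me3), a mark of silent chromatin, in spleen CD8 T cells of the genotypes Ehmt2+/+ (WT, n = 2) and Ehmt2-/- (KO, n = 2), cultured with antibodies to CD3 and CD28. The sources used here do not give the promoter behind the deletion, the age of the mice, the nature of the host or whether replicates are different animals. The p-values therefore reflect how far these samples differ among themselves, which could be technical variation. In bulk RNA, fewer cells of a type and less RNA per cell cannot be told apart.

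Egr1, Egr2 and Egr3 are zinc finger factors induced by receptor signals, Egr1 within minutes through the ERK pathway and serum response factor. Egr2 and Egr3 also restrain T cell responses and drive several genes of unresponsive T cells. Nr4a1 (Nur77), Nr4a2 (Nurr1) and Nr4a3 (Nor1) are orphan nuclear receptors that receptor signals switch on, and Nr4a1 is widely used as a reporter of such signals. Tox and Tox2 are HMG box factors: Tox is needed for the CD4 lineage in the thymus and for exhausted CD8 T cells, and Tox2 is linked to follicular helper cells.

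RefSeq promoter windows (GRCm38.p6, 250 bases before an annotated start) were given for 5 of the 8 members: Egr2, Nr4a1, Nr4a2, Nr4a3 and Tox2. The 4 windows below are shown because Egr2 and the Nr4a genes were high in the same KO DP libraries. These windows were also picked because each held matches to the searched motifs. Capitals mark the CArG box, the site of serum response factor, in Egr2. In all 4 windows they mark the letters TGACG on either strand, the half-site of the cyclic AMP response element, and in Nr4a1 also the EGR site GCGGGGGCG on the reverse strand. The windows lie at chr10:67537619-67537868 on the plus strand (Egr2), chr15:101266596-101266845 on the plus strand (Nr4a1), chr2:57124004-57124253 on the minus strand (Nr4a2) and chr4:48045055-48045304 on the plus strand (Nr4a3).
Egr2: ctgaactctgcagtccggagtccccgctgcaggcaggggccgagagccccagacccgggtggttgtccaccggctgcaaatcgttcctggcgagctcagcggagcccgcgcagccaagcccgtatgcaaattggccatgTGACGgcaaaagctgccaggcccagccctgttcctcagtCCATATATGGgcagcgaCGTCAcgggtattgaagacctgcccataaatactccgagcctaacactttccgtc
Nr4a1: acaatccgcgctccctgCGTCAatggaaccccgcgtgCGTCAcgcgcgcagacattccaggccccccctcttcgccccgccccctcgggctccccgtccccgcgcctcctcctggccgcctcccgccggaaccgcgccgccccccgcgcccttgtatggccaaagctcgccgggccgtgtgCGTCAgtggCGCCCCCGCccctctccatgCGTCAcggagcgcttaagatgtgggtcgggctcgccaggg
Nr4a2: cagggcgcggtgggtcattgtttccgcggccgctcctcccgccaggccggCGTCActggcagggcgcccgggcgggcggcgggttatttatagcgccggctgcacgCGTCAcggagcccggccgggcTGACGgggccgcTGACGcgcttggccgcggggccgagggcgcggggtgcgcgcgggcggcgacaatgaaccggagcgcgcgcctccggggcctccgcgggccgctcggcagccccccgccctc
Nr4a3: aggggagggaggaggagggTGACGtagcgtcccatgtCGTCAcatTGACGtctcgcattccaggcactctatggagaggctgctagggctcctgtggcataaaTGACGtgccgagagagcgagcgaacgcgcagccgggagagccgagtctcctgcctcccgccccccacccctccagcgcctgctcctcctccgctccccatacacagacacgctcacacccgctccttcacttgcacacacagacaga

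The CArG box of Egr2 began at -72, counted from the start, and 1.47% of all 32851 windows of the table held one. The EGR site in Nr4a1 was the only EGR site in these 4 windows, against 2.57% of all windows with the same letters. Each of the Nr4a1, Nr4a2 and Nr4a3 windows held 4 half-sites, where 0.137% of all windows held at least 4 and 17.8% at least 1. The half-site was added to the search after the sequences were seen, so its count is a description. None of the 13 member windows held the full element TGACGTCA, which contains the half-site on both strands, the Nr4a site AAAGGTCA or the AP-1 site TGANTCA. These letters occurred in 1.55%, 1.34% and 6.75% of all windows, and both strands were searched for each motif. The NFAT core GGAAA was at -8 in the Egr2 window shown and -230 in Nr4a2, was absent from Nr4a1 and Nr4a3, and occurred in 55.6% of all windows. The Egr2 window at chr10:67535249-67535498, from another start, held no match to any searched motif.

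Libraries differed in ways the groups do not explain. FPKM summed to between 441903 and 504013 in 8 libraries, while KO DP replicates 3 and 4 summed to 292872 and 183632. The mean of 1118 olfactory receptor genes, a class with no known use in T cells, was 0.149 and 0.227 FPKM in those 2 libraries and 0.00739 to 0.021 in the other 8. The median difference of all tested genes between KO DP and WT was -0.38 on the log2 scale as deposited and -0.01 after scaling each library by its median ratio to all libraries. As deposited 36.2% of the called genes were higher in KO DP, and after scaling 55.1%. WT replicate 2 was over 2 times above each other WT library in 3.67% of the tested genes. It was known from earlier results of these data to stand out, so each WT library is given singly. Results are given with and without it. Leaving it out was chosen with its levels known and raised the difference between KO DP and WT for every tested member. The p-values without it are therefore a description.

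Ehmt2 itself was at 20.9, 23.6, 12.8 and 7.28 FPKM in KO DP, at 12.6 and 13.6 in KO sp and, in WT, at 18.1, 42.6, 27.0 and 21.5, so its level did not separate the genotypes. The sources used here do not say which part of Ehmt2 was deleted, and RNA from the rest of the gene cannot check the labels. Cd4 was at 49.4 to 178 FPKM in KO DP and at 0.144 to 0.495 in the other 6 libraries, and the CD8 chain Cd8b1 was at 248 to 904 FPKM in KO DP and 1180 to 1511 in the others, in keeping with the labelled CD4 and CD8 phenotypes.

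In KO DP cells Egr2 was the one member called higher than in WT as the values were deposited, by 2.12 ± 0.42 on the log2(FPKM + 1) scale (SE; limma, adjusted p = 0.0119). Among all tested genes 2.86% were called higher in that comparison. Nr4a1, Nr4a2 and Tox2 also passed once WT replicate 2 was left out, and Egr1, Nr4a1 and Tox2 passed after scaling. KO sp cells, which carry the same knockout, lay within the range of the WT libraries for every tested member, and no member passed there. WT replicate 2 set the top of that range, and both KO sp libraries lay above the other 3 WT libraries for Egr1, Egr2, Nr4a1 and Nr4a2. WT replicate 2 alone among the WT libraries carried Nr4a2, Tox and Tox2 at the level of KO DP or above it, with Egr2 low.

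**Figure D1:**
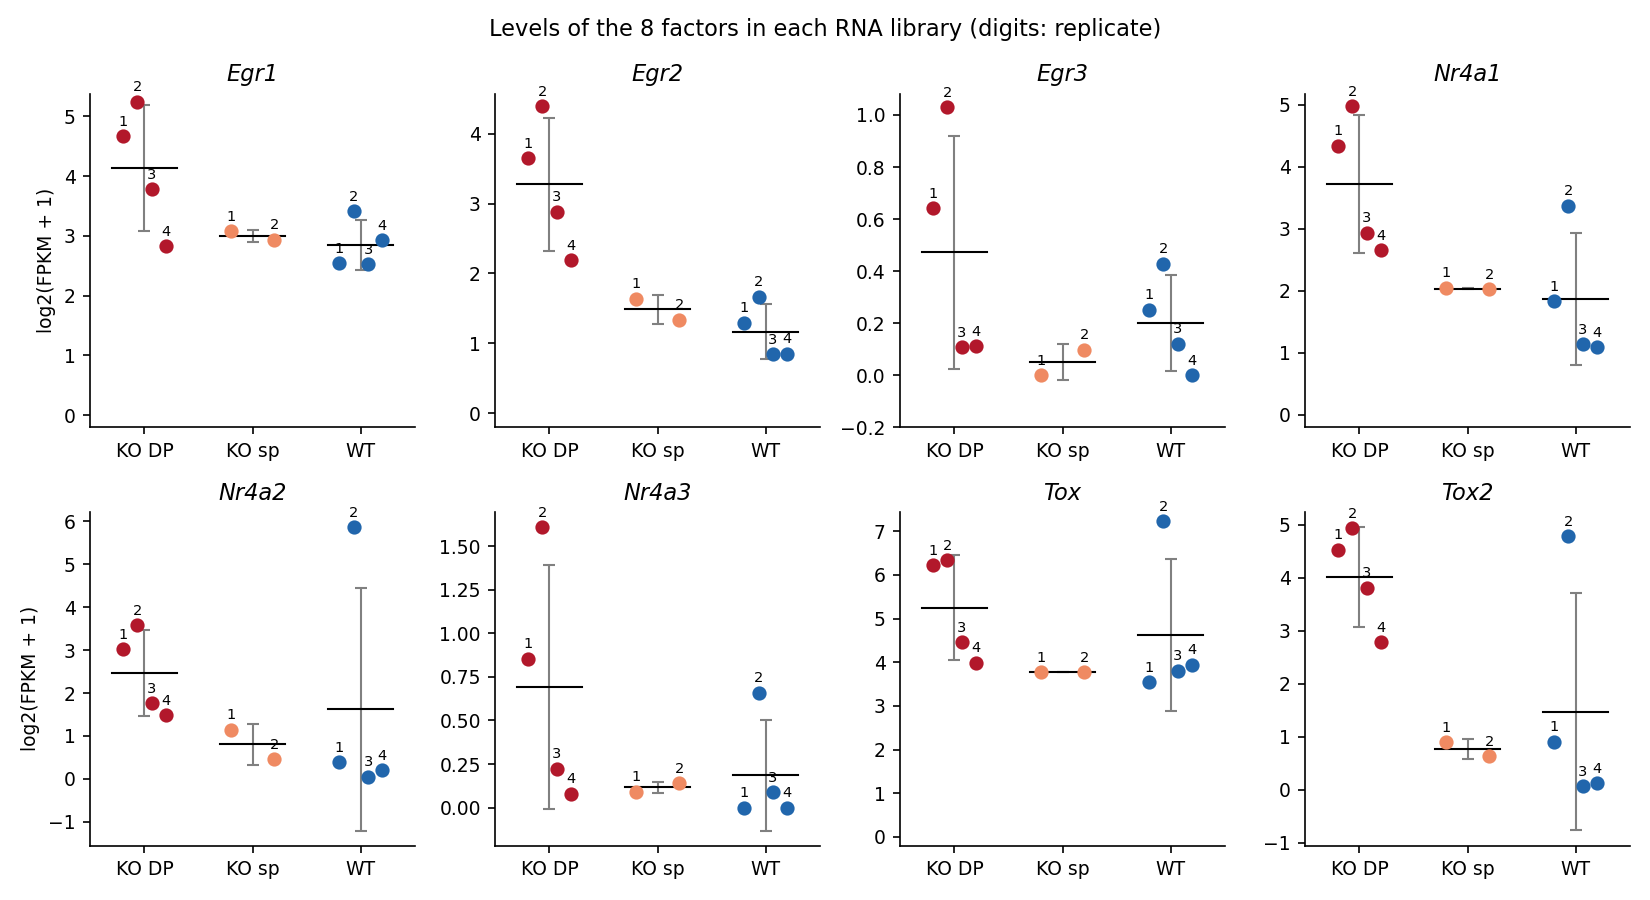
Level of each member in the 10 RNA libraries, as log2(FPKM + 1) on the vertical axis, by group. Points are libraries with their replicate number, black lines group means and grey bars the SD; KO DP replicates 1 and 2 are the highest of their group in every panel, and WT replicate 2 stands above the other WT libraries by the most for Nr4a2, Tox and Tox2.

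Egr1 is the family member most widely induced by growth and receptor signals. Replicates 1 to 4 of KO DP had 24.4, 36.8, 12.7 and 6.10 FPKM of Egr1, those of WT 4.81, 9.65, 4.76 and 6.59, and those of KO sp 7.41 and 6.64, and all values below follow this order of replicates. KO DP replicates 1 to 3 lay above all other libraries, and KO DP replicate 4 lay within the WT range. The difference between KO DP and WT was 1.28 ± 0.46 (SE, log2; limma, adjusted p = 0.103) as deposited and did not pass.

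After median-ratio scaling, KO DP replicates 3 and 4 stood at 17.5 and 13.4 and the highest WT library at 8.57, so the groups no longer overlapped. The scaled difference for Egr1 was 1.67 ± 0.27 with an adjusted p of 0.00348 by limma. After scaling 9.7% of all genes were called higher. Without scaling Egr1 passed by limma with the replicate block (adjusted p = 0.0405), with the range of title numbers as a term (adjusted p = 0.0278) and without KO DP replicate 4 (adjusted p = 0.0271).

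Egr2, the Egr member tied most closely to restraint of T cells, was at 11.5, 20.0, 6.39 and 3.56 FPKM in KO DP, at 2.11 and 1.53 in KO sp and at 1.45, 2.17, 0.796 and 0.806 in WT. Every KO DP library lay above all 6 others, and WT replicate 2 was the highest WT library by a small margin. The KO DP mean of 10.4 ± 7.2 FPKM was 7.95 times the WT mean of 1.31 ± 0.65 (SD, n = 4 each). It passed in 23 of 25 alternatives. The exceptions were the fit without WT replicate 3 (adjusted p = 0.0526) and the fit of the 4 libraries numbered 34 to 37 alone (adjusted p = 0.113, both by limma). Of all tested genes, 3.4% had every KO DP library above every WT library, and Egr2 was the one member among them as deposited. After scaling Egr1 and Nr4a1 joined it, against 10.2% of all genes.

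Egr3, a close relative that shares targets with Egr2, was low throughout. It was at 0.560, 1.04, 0.0773 and 0.0802 FPKM in KO DP, at 0 and 0.0706 in KO sp and at 0.190, 0.345, 0.0878 and 0 in WT. KO DP replicates 1 and 2 were above all other libraries and KO DP replicates 3 and 4 lay among them. Fitted with no minimum level, its difference between KO DP and WT was 0.27 ± 0.20 (SE, log2; limma, adjusted p = 0.358). In each KO DP library Egr1 made up 62.7% to 66.8% of the summed Egr FPKM and Egr2 31.6% to 36.5%. In the other 6 libraries Egr2 made up 10.9% to 22.5%, below every KO DP library. Egr4, the fourth family member, was below 1 FPKM in all 10 libraries. The Egr corepressor Nab1 was at 19.6 to 60.4 FPKM in KO DP and 32.6 to 46.6 in WT, with adjusted p = 0.762 by limma, and its relative Nab2 was listed at 0 in all 10.

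Nr4a1 was at 19.2, 30.3, 6.64 and 5.31 FPKM in KO DP, at 3.13 and 3.07 in KO sp and at 2.56, 9.34, 1.20 and 1.13 in WT. WT replicate 2 exceeded KO DP replicates 3 and 4, while the other WT libraries lay below all KO DP libraries. The same held, with WT replicate 2 set aside, for Egr2, Nr4a2, Tox and Tox2, so 5 of the 6 tested members had every KO DP library above WT replicates 1, 3 and 4, as did 6.96% of all genes. The difference between KO DP and WT was 1.87 ± 0.58 (SE, log2; limma, adjusted p = 0.0725). Without WT replicate 2 it was 2.37 ± 0.52 (adjusted p = 0.0182), where 4.58% of all genes were called higher, and after scaling all libraries it was 2.21 ± 0.48 (adjusted p = 0.0144).

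Nr4a2 depended on WT replicate 2 more than any other tested member. In KO DP it was at 7.11, 10.9, 2.41 and 1.79 FPKM, in KO sp at 1.22 and 0.379 and in WT at 0.311, 57.3, 0.0377 and 0.148. WT replicate 2 was the highest of all 10 libraries, above every KO DP library, and the other 3 WT libraries were the lowest. The mean WT level was 14.5 ± 28.6 FPKM (SD, n = 4) with that library and 0.165 ± 0.137 without it (SD, n = 3), against 5.56 ± 4.30 in KO DP (SD, n = 4).

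The difference between KO DP and WT for Nr4a2 was 0.83 ± 1.09 (SE, log2; limma, adjusted p = 0.597) with all libraries and 2.25 ± 0.47 (adjusted p = 0.0143) without WT replicate 2. Scaling alone did not bring it past the threshold (1.08 ± 1.12, adjusted p = 0.544). Nr4a3 was at 0.808, 2.05, 0.167 and 0.0579 FPKM in KO DP, at 0.0661 and 0.102 in KO sp and at 0, 0.581, 0.0633 and 0 in WT. Only KO DP replicates 1 and 2 and WT replicate 2 were above 0.5 FPKM. With no minimum level its difference between KO DP and WT was 0.50 ± 0.31 (SE, log2; limma, adjusted p = 0.298).

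The makeup of the Nr4a family was nearly constant in KO DP although its total varied. The summed Nr4a FPKM ran from 7.16 in KO DP replicate 4 to 43.3 in KO DP replicate 2, yet Nr4a1 made up 70.0% to 74.1% of it and Nr4a2 25.0% to 26.2% in all 4 libraries. In WT replicate 2 the sum was 67.3 FPKM, of which Nr4a1 made up 13.9% and Nr4a2 85.2%. In WT replicates 1, 3 and 4 the sums were 2.87, 1.30 and 1.28 FPKM, and Nr4a1 made up 88.5% to 92.2%. In KO sp replicate 1 Nr4a1 and Nr4a2 made up 70.9% and 27.6%, close to KO DP, and in KO sp replicate 2 86.4% and 10.7%, close to WT replicates 1 and 4. WT replicate 2 thus differed from KO DP in which Nr4a gene predominated, with no replicate of its own to give a test.

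Tox was the most abundant member in FPKM. It was at 73.5, 80.1, 20.9 and 14.9 FPKM in KO DP, at 12.6 and 12.7 in KO sp and at 10.7, 149, 13.0 and 14.4 in WT. WT replicate 2 was above every KO DP library, and KO DP replicate 4 lay just above the other 3 WT libraries. The difference between KO DP and WT was 0.62 ± 0.78 (SE, log2; limma, adjusted p = 0.582), and 1.49 ± 0.55 (adjusted p = 0.114) without WT replicate 2. Tox passed in 2 of 25 alternatives, the fit with library weights (adjusted p = 0.00465) and the fit with scaling and without WT replicate 2 together (1.90, adjusted p = 0.00283).

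Tox2 was at 22.1, 29.6, 13.0 and 5.91 FPKM in KO DP, at 0.868 and 0.552 in KO sp and at 0.878, 26.6, 0.0482 and 0.0945 in WT. The 4 KO DP libraries and WT replicate 2 were above 5 FPKM, and the other 5 libraries were below 1. The difference between KO DP and WT was 2.54 ± 0.89 (SE, log2; limma, adjusted p = 0.0974) with all libraries and 3.65 ± 0.47 (adjusted p = 0.00134) without WT replicate 2. After scaling all libraries it was 2.86 ± 0.87 (adjusted p = 0.0498), just past the threshold. Tox2 made up 23.1% to 38.4% of the summed Tox and Tox2 FPKM in KO DP, 15.2% in WT replicate 2 and 0.370% to 7.59% in the other 5 libraries. The relatives Tox3 and Tox4 did not follow: Tox3 was below 1 FPKM in all 10 libraries, and Tox4 was at 11.7 to 30.1 FPKM in KO DP and 28.0 to 34.6 in WT (-0.48 ± 0.30, log2; limma, adjusted p = 0.309).

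**Figure D2:**
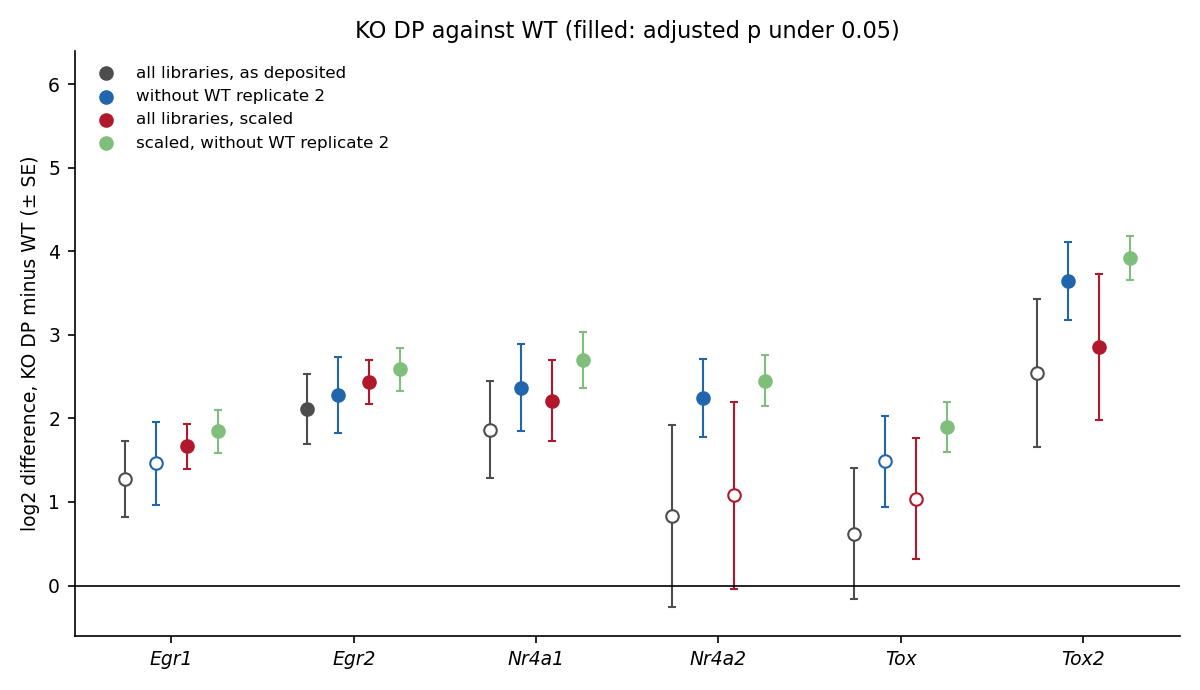
Difference between KO DP and WT in log2(FPKM + 1) with its SE for the 6 tested members under 4 treatments of the libraries; filled points have a limma adjusted p under 0.05. As deposited Egr2 alone is filled, and with scaling and without WT replicate 2 all 6 are, at 1.85 for Egr1, 2.59 for Egr2, 2.70 for Nr4a1, 2.45 for Nr4a2, 1.90 for Tox and 3.92 for Tox2.

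Across the 6 tested members, every estimate of the difference between KO DP and WT was above 0 in all 25 alternatives, from 0.17 for Nr4a2 within libraries 34 to 37 to 4.21 for Tox2 with library weights. The members were chosen with earlier results of these data known, so their shared direction is a description. WT replicate 2 was also left out with its levels known, so the counts without it are a description too. The number that passed was 1 of 6 as deposited, 4 without WT replicate 2, 4 after scaling and 6 with both, where 13.5% of all genes were called higher. Leaving out KO DP replicates 3 and 4 together left 3 that passed (Egr1, Egr2 and Nr4a1), against 4.95% of all genes.

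KO DP and WT share the replicate numbers 1 to 4, and with the replicate block 4 members passed by limma. These were Egr1 (adjusted p = 0.0405), Egr2 (adjusted p = 0.00084), Nr4a1 (adjusted p = 0.00212) and Tox2 (adjusted p = 0.0117), against 4.8% of all genes called higher. The fit also held KO sp, whose replicates 1 and 2 carry title numbers 738 and 739 and shared blocks with titles 34 to 37.

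The titles of the RNA samples carry numbers from 34 to 37 or from 738 to 741, and each range holds 2 KO DP and 2 WT libraries. Within 34 to 37, which holds WT replicate 2, no member passed by limma and 0.448% of all genes were called higher. Egr1 (1.98 on the log2 scale), Egr2 (2.54) and Nr4a1 (2.05) were under 0.05 before adjustment there, and Tox2 was at 1.89. Within 738 to 741, Egr2 (1.69), Nr4a1, Nr4a2 and Tox2 passed, against 6.66% of all genes, with Egr1 at 0.58 and Tox at 0.35. The difference between the ranges itself passed for no member by limma, with adjusted p from 0.113 for Egr1 to 0.754 for Tox as deposited.

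Between KO DP and KO sp, both knockout, every KO DP library lay above both KO sp libraries for Egr2, Nr4a1, Nr4a2, Tox and Tox2, and KO DP replicate 4 was below KO sp for Egr1. Of all genes 4.44% had that separation as deposited. The differences were 1.13 ± 0.56 for Egr1, 1.79 ± 0.51 for Egr2 and 1.69 ± 0.72 for Nr4a1, and 1.66 ± 1.33 for Nr4a2, 1.48 ± 0.96 for Tox and 3.25 ± 1.09 for Tox2 (SE, log2). No member passed by limma, where 0.421% of all genes were called higher. Before adjustment 3 were under 0.05 by limma, Egr2, Nr4a1 and Tox2, with adjusted p of 0.0882, 0.188 and 0.124. The KO sp libraries and KO DP replicates 3 and 4 carry title numbers 738 and 739. KO DP replicates 1 and 2 carry 34 and 35, so the comparison mixes phenotype with the range of titles. With KO DP replicates 3 and 4 only, the differences were 0.30 for Egr1, 1.05 for Egr2 and 0.76 for Nr4a1. They were 0.82 for Nr4a2, 0.45 for Tox and 2.53 for Tox2, so each was smaller. The median over all genes was -0.89 there, against -0.43 with all libraries. The cause was not tested.

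After scaling, Egr1 (1.62, adjusted p = 0.0233) and Egr2 (2.20, adjusted p = 0.00606) passed between KO DP and KO sp, against 2.62% of all genes called higher. Without WT replicate 2, which enters only the shared estimate of spread, Tox2 passed by limma (adjusted p = 0.0106), against 0.654% of all genes. The group KO sp has n = 2, which limits the test, and both comparisons of KO DP share its 4 libraries.

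Between KO sp and WT, the estimates were 0.15 ± 0.56 for Egr1, 0.33 ± 0.51 for Egr2 and 0.18 ± 0.72 for Nr4a1, and -0.82 ± 1.33 for Nr4a2, -0.86 ± 0.96 for Tox and -0.70 ± 1.09 for Tox2 (SE, log2). None passed by limma, with none at an unadjusted p under 0.05, and 0.116% of all genes were called in either direction. The signs for Nr4a2, Tox and Tox2 turned without WT replicate 2, to 0.59, 0.01 and 0.40. A p that misses the threshold with n = 2 against n = 4 does not show that the groups were alike.

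WT replicate 2 was compared with the mean of the other 3 WT libraries, gene by gene and with no test, since it is 1 library. It was 1.79 times that mean for Egr1, 2.13 times for Egr2, 5.73 times for Nr4a1, 347 times for Nr4a2, 11.7 times for Tox and 78.1 times for Tox2. Nr4a1, Nr4a2, Tox and Tox2 were over 2 times above each other WT library, where 410 of 11162 tested genes were. By the size of the difference on the log2 scale, Nr4a2 ranked 16th, Tox2 34th, Tox 56th and Nr4a1 210th among the 11162 genes, and Egr1 and Egr2 ranked 1222nd and 1459th. Set beside the KO DP libraries, WT replicate 2 was below every one for Egr2, above every one for Nr4a2 and Tox, and within their range for Egr1, Egr3, Nr4a1, Nr4a3 and Tox2.

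**Figure D3:**
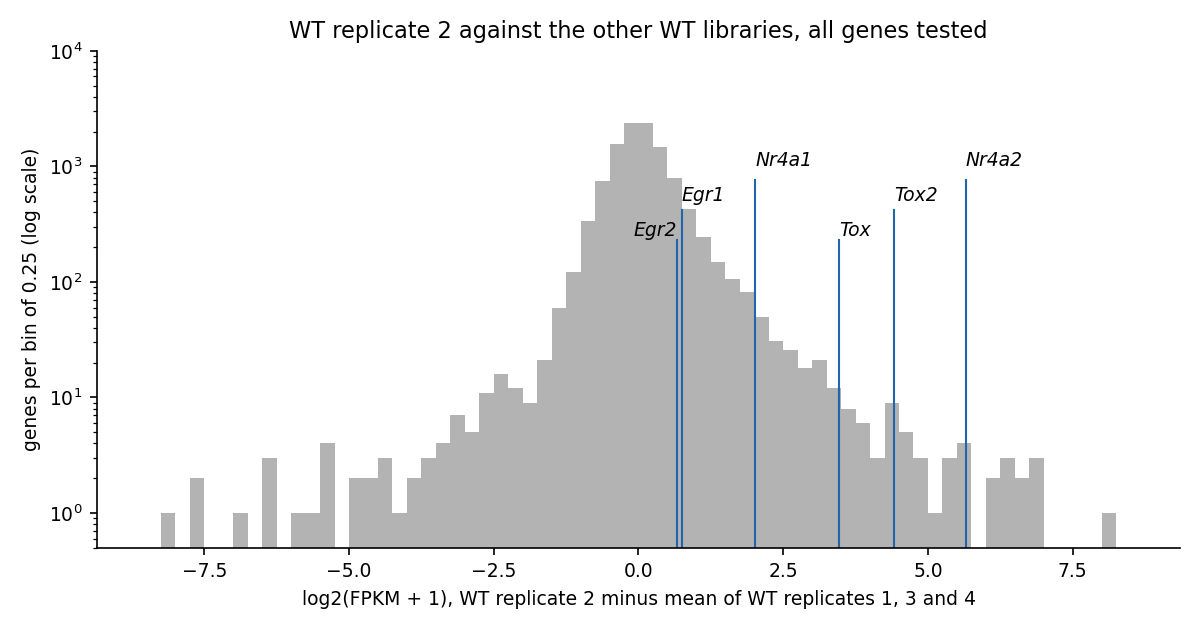
Number of genes (vertical, log scale) by the difference between WT replicate 2 and the mean of WT replicates 1, 3 and 4 in log2(FPKM + 1), for all 11162 tested genes. Vertical lines mark the 6 tested members; Egr1 and Egr2 lie at 0.75 and 0.67 inside the bulk of genes, and Nr4a2, at 5.65, lies far in the upper tail.

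The wider pathway was read from 6 lists of genes. Of 18 tested genes known to be induced by the receptor, Il2ra (interleukin 2 receptor alpha chain) and Rgs1 rose in KO DP against WT and Cd69, an early activation marker, fell, where 2.86% of all genes were called higher and 5.03% lower. After scaling, Cd5, Dusp1 and Nfkbia were also higher and Zfp36 also lower, against 9.7% and 7.89% of all genes. Without WT replicate 2, Dusp1 and Irf4 joined Il2ra and Rgs1, against 4.58% called higher and 5.94% lower. The median difference of the list as deposited was -0.05 on the log2 scale, against -0.38 over all genes. Cd69 was at 20.8 to 39.5 FPKM in KO DP, 111 and 113 in KO sp and 54.9 to 133 in WT, with no overlap. Its difference was -1.69 ± 0.35 (SE, log2; limma, adjusted p = 0.0155), opposite in sign to that of Egr2 although both are receptor-induced genes. Rgs1 was at 37.0 to 149 FPKM in KO DP and 16.2 to 30.7 in WT (1.85 ± 0.46, adjusted p = 0.0329), and Dusp1, an ERK pathway phosphatase, did not pass as deposited (1.56 ± 0.48, adjusted p = 0.0674). Dusp1 was at 1.96 after scaling (adjusted p = 0.00535) and at 1.80 without WT replicate 2 (limma, adjusted p = 0.0486).

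Of 9 tested genes known as targets of Egr2 and Egr3 in unresponsive T cells, none passed between KO DP and WT as deposited by limma, with 3 under 0.05 before adjustment (Crtam, Nrgn and Ndrg1). After scaling, Ndrg1 (1.31, adjusted p = 0.0140) and Nrgn (1.62, adjusted p = 0.0436) were higher by limma, against 9.7% of all genes. Without WT replicate 2, Lag3, Nrgn and Tnfrsf9 were higher, against 4.58%, and Crtam was lower, against 5.94%. The list's median difference was 0.34 as deposited and 0.82 without WT replicate 2, against -0.38 over all genes in each case. In WT replicate 2, where Egr2 stood at 2.17 FPKM, 6 of the 9 were over 2 times above each other WT library: Fasl, Cblb, Lag3, Tnfrsf9, Nrgn and Sema7a. Of all tested genes 3.67% were that far above in WT replicate 2. Tnfrsf9 (4-1BB, a costimulatory receptor) was at 118 FPKM there, against 5.23 to 7.24 in the other WT libraries and 18.4 to 62.3 in KO DP.

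Tox is part of the exhaustion programme of CD8 T cells. Of 13 tested genes of that programme, Ctla4 rose and Tcf7, a factor of naive and memory T cells, fell between KO DP and WT as deposited. Of all genes 2.86% were called higher and 5.03% lower in that comparison. After scaling, Batf, Ctla4 and Tigit were higher and Tcf7 lower, against 9.7% and 7.89% of all genes. Without WT replicate 2, Ctla4, Havcr2, Lag3, Pdcd1, Prdm1 and Tigit were higher and Tcf7 lower, where 4.58% of all genes were called higher and 5.94% lower. The median difference was 0.80 as deposited and 1.23 without WT replicate 2, against -0.38 over all genes in each case. Pdcd1 (PD-1) was at 48.7 to 187 FPKM in KO DP, 11.6 and 10.4 in KO sp and, in WT, at 3.31, 238, 2.34 and 1.41, with WT replicate 2 the highest library and KO DP replicate 2 the next, as for Tox. In WT replicate 2, 8 of the 13 were over 2 times above each other WT library, against 3.67% of all tested genes.

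Of 10 tested genes of calcium, calcineurin and NFAT, Ppp3cc, a calcineurin catalytic subunit, fell in KO DP against WT (-1.42 ± 0.31, log2; limma, adjusted p = 0.0201), where 5.03% of all genes were called lower. After scaling Ppp3ca, another catalytic subunit, also passed (-0.45, adjusted p = 0.0417), against 7.89%. None of 13 genes of proximal receptor signalling, Ras and ERK passed, and none of the 6 genes of handling stress that were tested, as deposited, after scaling or without WT replicate 2. The lowest p as deposited in the latter 2 lists before adjustment was 0.0885 for Lck and 0.102 for Jun by limma, so none was under 0.05. In none of these 3 lists was a gene over 2 times above each other WT library in WT replicate 2. Of the stress list, Jun was at 4.79 to 57.7 FPKM in KO DP and 21.3 to 40.3 in WT, without the separation of the groups that Egr2 showed.

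**Figure D4:**
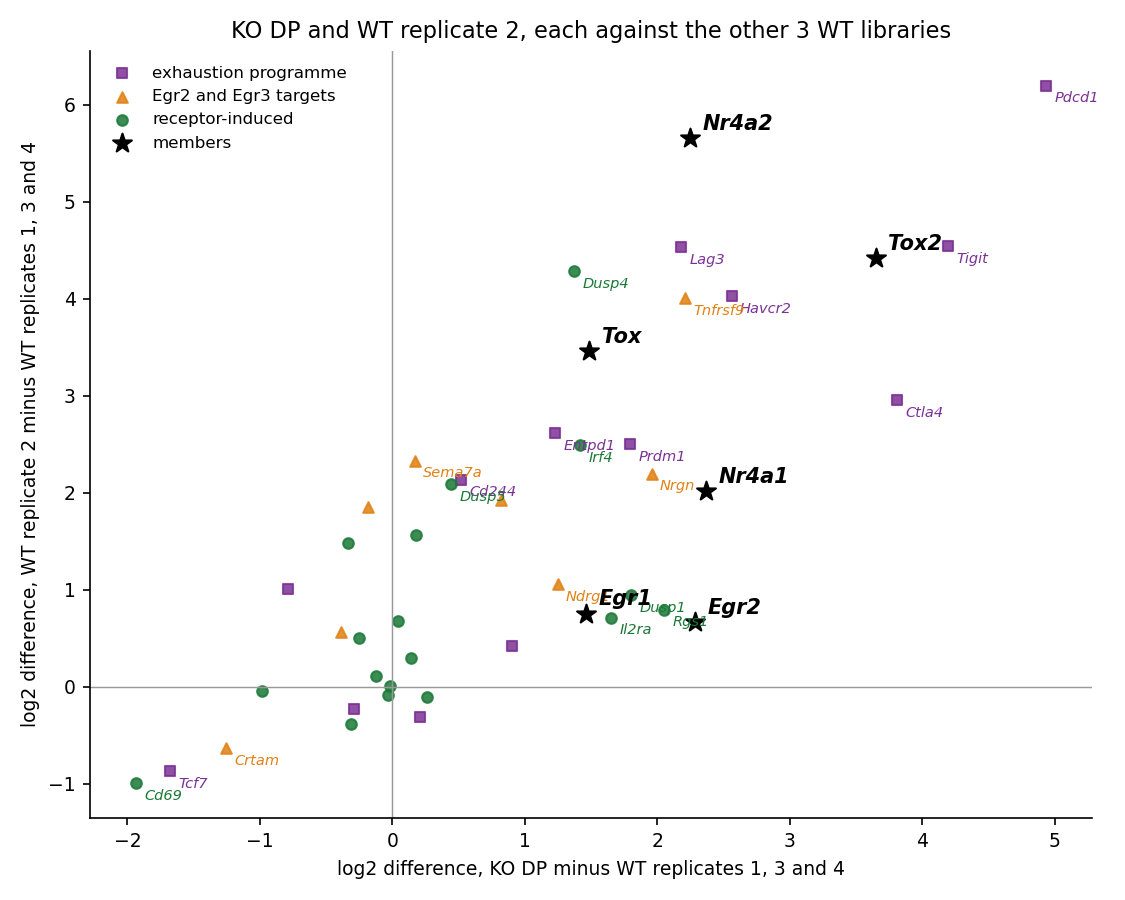
Difference in log2(FPKM + 1) to WT replicates 1, 3 and 4, for KO DP (horizontal) and WT replicate 2 (vertical); stars are members, other symbols genes of 3 lists. Both axes share the same 3 WT libraries, so points along a diagonal are partly fixed by them; Egr2 lies at 2.28 and 0.67, Nr4a2 at 2.25 and 5.65 and Tox2 at 3.65 and 4.42.

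Markers of other cells differed between the same libraries. The 7 myeloid markers found in the table summed to 176, 125, 16.8 and 16.1 FPKM in KO DP, 27.0 and 16.2 in KO sp and, for WT, 60.0, 134, 13.6 and 25.8. The 6 erythroid markers summed to 468 to 1213 in the 4 libraries numbered 34 to 37 and 1.32 to 57.3 in the other 6. KO DP replicates 1 and 2, the highest KO DP libraries for every member, and WT replicate 2 had the 3 highest myeloid sums. The 5 dendritic markers summed to 38.9 FPKM in WT replicate 2, 6.28 to 28.2 elsewhere, of which Itgax alone was 36.3. The other dendritic markers did not share that rise. Flt3 was at 0.121 in WT replicate 2, the lowest of all libraries, and Siglech at 0.00265. Xcr1 at 1.52 and Zbtb46 at 0.965 were below KO DP replicates 1 and 2. The 7 T cell markers summed to 1116 to 4016 FPKM in KO DP and 3487 to 4287 in WT. The myeloid, erythroid and dendritic markers had no gene called between KO DP and WT, of 7, 5 and 3 tested. Nor had the B cell, NK and thymocyte markers, of 5, 1 and 1 tested.

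Markers of CD4 T cell subsets also moved with KO DP. Of 5 regulatory T cell markers 4 were called higher in KO DP against WT, where 2.86% of all tested genes were. Foxp3 was at 28.3, 19.8, 3.52 and 4.94 FPKM in KO DP and listed at 0 in the other 6 libraries. Of 6 follicular helper markers 4 were called higher, against the same 2.86% of all genes. The 6 summed to 111 to 376 FPKM in KO DP, 81.4 to 99.3 in WT replicates 1, 3 and 4 and 222 in WT replicate 2. Some of these markers, Il2ra and Ctla4, are themselves in the receptor and exhaustion lists. The part of any of these cells or states in the members' levels was not tested.

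The members' levels were related to each other over the 10 libraries, as a description over libraries that share groups and depth. Pearson's r of log2(FPKM + 1) was 0.94 between Egr1 and Egr2, 0.94 between Egr2 and Nr4a1 and 0.95 between Nr4a2 and Tox. Between Egr2 and Nr4a2 it was 0.54, and 0.99 over the 9 libraries without WT replicate 2. The genes most like Egr2 were Tg (0.98), Tff1 (0.98) and Synpo (0.98), and those most like Egr1 were Rnf19a, Mif4gd and Pi4k2b (each 0.98). Nr4a1 was most like Mical2, Hist1h2bc and Chst2 (each 0.98). Nr4a2 was most like Spp1 (0.99), Prr5l (0.98) and Itih5 (0.98). Tox was most like Lag3 (0.99), Itih5 (0.98) and Gpr56 (0.98), and among the genes most like Tox2 were Mtap6 (0.98) and Nrgn (0.98). The genes named for Nr4a2 and Tox were each highest in WT replicate 2. Without that library Nr4a2 was most like Rgs16, Rasgef1a and Il2ra (each 0.99), and Tox like Sostdc1 (0.99), Itih5 (0.99) and Rasgef1b (0.98).

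H3K9me3 peaks lay within 10 kb of the start of 2 or 3 of the 8 members in each list, and Tox and Nr4a3 had such a peak in all 4. The authors called peaks in each immunoprecipitated library and assigned each to the nearest start site (mm9). Peaks were assigned to 7 and 6 of the 8 members in the WT lists and 6 and 7 in the KO lists, 38, 27, 27 and 33 peaks in all. The lists differ in length, from 23304 peaks in WT replicate 2 to 154997 in KO replicate 2, and counts follow how much was called. Over all genes, 33.0% to 51.6% had an assigned peak, and 26.2% and 12.6% had one within 10 kb in the WT lists and 22.2% and 26.4% in the KO lists. Egr3 had none in any list.

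Within 10 kb of a start, the members had 3, 2, 2 and 2 peaks in the 4 lists. The Tox region at chr4:6924925-6926556 (mm9, intergenic) had its nearest peak centre 7804 bp upstream of the start. The Nr4a3 region at chr4:48072703-48073689 (mm9) lay in intron 3 of 5 of the transcript NM_015743, 9049 bp or more from the start. The third WT replicate 1 peak was at Nr4a2, in exon 3 of 8 of NM_013613, and in no other list. Egr2, the member called in KO DP, had no peak within 10 kb in any list, and the 1 region near it shared by all 4 lists was chr10:66947298-66949557 (mm9, intergenic), over 50 kb upstream. At Tox2 the nearest region in all 4 lists was chr2:163032311-163034009 (mm9, intergenic), 17863 bp upstream. After merging, the peaks formed 52 regions, of which 14 were in all 4 lists and 18 in 1 list. Both WT lists and neither KO list held 4 regions, at Egr2, Tox and Tox2, all over 50 kb from a start, and 0.994% of 249991 regions over the genome had that pattern. Both KO lists and neither WT list held 1, at Tox, against 11.3% of all regions. With lists of such unequal length and n = 2 per genotype, these counts are a description. These cells were cultured CD8 T cells and not the expanded KO DP cells, so RNA and H3K9me3 come from different cells.

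**Figure D5:**
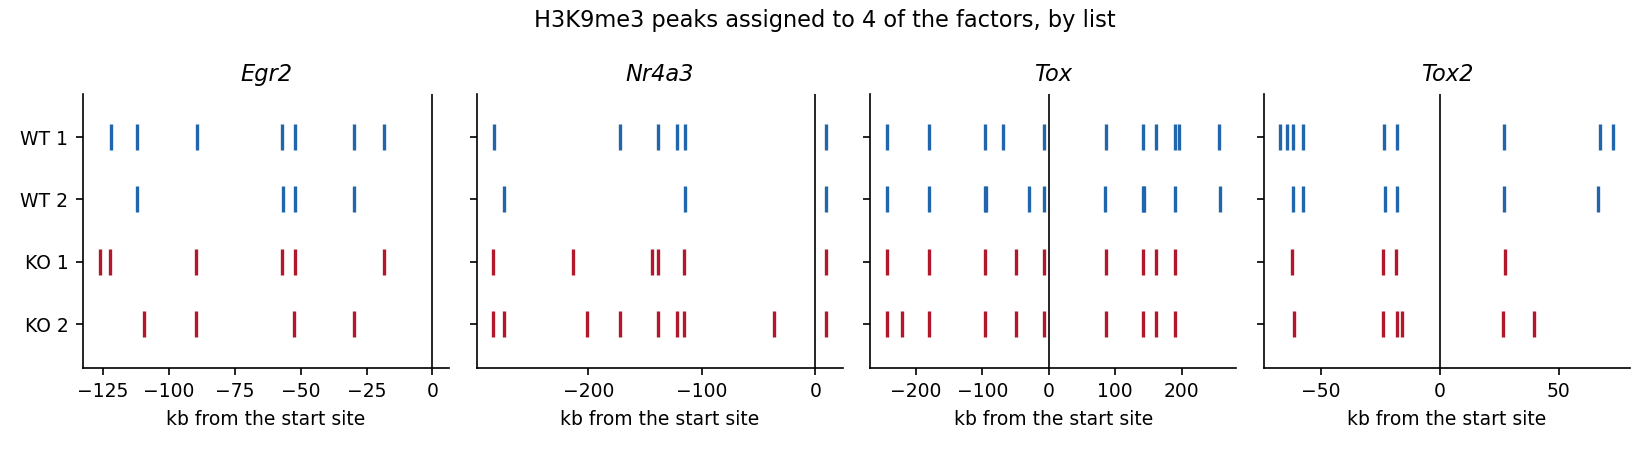
H3K9me3 peaks that the authors assigned to Egr2, Nr4a3, Tox and Tox2, by distance of the peak centre from the start site in kb (horizontal) and by list (WT blue, KO red). Ticks at the same distance in all 4 rows are shared regions, such as the one 7804 bp upstream of Tox; no tick lies within 10 kb of the start of Egr2 or Tox2.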

How the data were processed

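RNA was measured in 10 libraries and H3K9me3 in 4. Per the labels' protocols, RNA was amplified with a SmartSeq v.4 kit and made into libraries with a Nextera kit, which does not mark the strand, so reads of overlapping genes on opposite strands cannot be told apart. RNA values were deposited as FPKM. The submitters' processing notes name TopHat, Cufflinks and mm9. FPKM holds no read counts, so depth intervals were not computed. The deposited peak lists give a score and a distance to the start site for each peak, and the notes name Bowtie, HOMER and mm9. The sources used here give no versions or thresholds.

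Lines that repeat a symbol (466) were added up. The 11162 genes that averaged 0.5 FPKM or more were tested with limma 3.58.1 (R 4.3.3). Values were log2(FPKM + 1), the fit held all 10 libraries and let the variance follow the mean, and two-sided p were adjusted by Benjamini-Hochberg over all tested genes (threshold 0.05). Adding 1 makes changes of low genes look smaller. The test was checked on simulated data. Scaling used median ratios. Alternatives are given in the closing section. Input libraries were not used here.

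KO DP and WT share numbers 1 to 4 in the sample descriptions. Libraries of equal number deviated together from their groups (r = 0.119, 0.293, 0.111 and 0.103), each above 0.1. They were fitted as pairs only in the alternatives with the replicate block, and the main fits had no block. KO DP replicate 3 correlated better with WT replicate 4 (0.201) and KO DP replicate 4 with WT replicate 3 (0.243). Equal numbers also fall in 1 range of titles, and pairing and range cannot be told apart.

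Named were the 8 members, Egr4, Tox3, Tox4, Nab1, Nab2, Ehmt2, Cd4 and Cd8b1, up to 4 genes of each pathway list by smallest p in KO DP against WT, and the 3 genes most correlated with each tested member, of which 1 is not reported here. For Nr4a2 and Tox the 3 genes most correlated without WT replicate 2 are also named. Other genes are named because a count calls them, and were chosen after their values were seen, as were Foxp3 and the dendritic markers. The members and lists were chosen with earlier results of these data known. Motifs were searched with Python 3.11.15 in RefSeq promoter windows of GRCm38.p6, and peaks were kept in mm9.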

Additional observations from a re-analysis of the deposited data

Results flagged for a closer look

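In groups of 4 libraries, a value was marked where its gap to the nearest other value, over the whole range of the group, exceeded Dixon's critical value for 4 values. Chance marks about 5% of such groups, and 72 pairs of gene and group were read, of which 14 were marked, 11 of them WT replicate 2.

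Among the members, WT replicate 2 stood above the other WT libraries for Nr4a2 (57.3 FPKM), Nr4a3 (0.581 FPKM), Tox (149 FPKM) and Tox2 (26.6 FPKM). It did the same for Egr4 at 0.122 FPKM, a level near 0. In the pathway lists it stood apart for Rgs1 (30.7 FPKM), Nrgn (4.31 FPKM), Tnfrsf9 (118 FPKM), Ctla4 (11.8 FPKM), Tigit (72.7 FPKM) and Pdcd1 (238 FPKM).

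Egr4 was also marked in KO DP replicate 2 at 0.747 FPKM. The heat shock gene Hspa1a was marked in KO DP replicate 1 at 68.2 FPKM, and Hspa1b in WT replicate 4 at 151 FPKM. Egr1, Egr2 and Nr4a1 were marked in neither group. The cause of these gaps was not tested.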

How the results depend on the processing

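Between KO DP and WT, 1 member passed as deposited. After median-ratio scaling 4 passed, after scaling to the column sum 4, with the range of title numbers as a term 4, within titles 738 to 741 4, within titles 34 to 37 0 and with library weights 6, where KO DP replicates 3 and 4 had weights of 0.213 and 0.0604 and WT replicate 2 0.443. With the replicate block 4 passed, and 4 with the replicate block and median-ratio scaling. Leaving out 1 library at a time gave from 0 (without WT replicate 3) to 4 (without WT replicate 2), with 2 without KO DP replicate 4. Of alternatives added after seeing the data, 3 passed without KO DP replicates 3 and 4 and 6 with scaling and without WT replicate 2. The direction was the same in all 150 values, with 34 newly past the threshold and 2 no longer past it, both for Egr2. Of all 11162 genes 319 were called higher as deposited, 1083 after median-ratio scaling, 1178 after column-sum scaling and 641 with the range term. Within titles 738 to 741 it was 743, within titles 34 to 37 it was 50 and with library weights 1988. The replicate block gave 536, and 1034 with scaling added. Without WT replicate 3 it was 137, without WT replicate 2 511 and without KO DP replicate 4 412.

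Between KO DP and KO sp, 0 passed as deposited, 2 after median-ratio scaling, 2 after scaling to the column sum, 6 with library weights and 2 without KO DP replicates 3 and 4 together. KO DP replicates 3 and 4 and KO sp carry the same title numbers, though no label says that they share an animal: with these 4 libraries alone 1 passed, and 3 with the title number as replicate block. Leaving out 1 library at a time gave 0 to 1, with 1 without KO DP replicate 4 and 1 without WT replicate 2. The direction was the same in all 126 values. Of all 11162 genes 47 were called higher as deposited, 293 after median-ratio scaling, 283 after column-sum scaling and 1628 with library weights. Without KO DP replicates 3 and 4 it was 267. With the 4 libraries of equal title numbers alone it was 259, and 495 with the block. The block left 1 residual degree of freedom, and limma's shared estimate of spread brought the total to 11162. Its p-values therefore rest on a spread shared by all genes. Without KO DP replicate 4 it was 117 and without WT replicate 2 it was 73.

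Between KO sp and WT, 0 passed in all 23 alternatives, and 20 of 138 log2 differences changed sign. With the replicate block they were -0.32 for Egr1, -0.20 for Egr2 and -0.66 for Nr4a1, and with scaling added -0.20, -0.070 and -0.52. That block put KO sp replicates 1 and 2 (titles 738 and 739) with KO DP and WT replicates 1 and 2 (titles 34 to 37). With the range of titles as a term Egr1, Egr2 and Nr4a1 were at 0.63, 0.85 and 1.01. With library weights Nr4a2 was at 0.27 and Tox2 at 0.26, and with the range of titles as a term Nr4a2 was at 0.35, Tox at 0.035 and Tox2 at 0.34. Within titles 738 to 741 Nr4a2 was at 0.68 and Tox2 at 0.67, with Egr1 at 0.28, Egr2 at 0.64, Nr4a1 at 0.92 and Tox at -0.10. Leaving out WT replicate 2 gave 0.59 for Nr4a2, 0.0073 for Tox and 0.40 for Tox2, and with scaling added 0.49 for Nr4a2 and 0.31 for Tox2. Nr4a1 was at -0.06 without WT replicate 3 and -0.079 without WT replicate 4. With 1 library left out, the range reached down to -1.35 for Nr4a2, -1.22 for Tox and -1.17 for Tox2. The cause of these changes was not tested.

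Over all genes 881 were called between KO DP and WT as deposited, 1964 after scaling, 1435 with the replicate block, 3801 with library weights, 73 within titles 34 to 37, 3878 within titles 738 to 741 and 308 to 1211 with 1 library left out. Between KO DP and KO sp 231 were called, 614 after scaling and 21 to 401 with 1 library left out. Between KO sp and WT 13 were called, and 37 with the range of titles as a term. With the replicate block, which put KO sp with the other range of titles, 346 were called.

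The peaks assigned to the members numbered 38, 27, 27 and 33 in WT replicates 1 and 2 and KO replicates 1 and 2. Within 100 kb of a start there were 24, 17, 15 and 18, and within 10 kb 3, 2, 2 and 2.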
